A study of Mus musculus with 2 samples.

Results

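The genes described here were 33 genes of DNA replication and S phase, taken by name as a fixed list of helicase, polymerase, nucleotide, checkpoint, chromatin and cell cycle entry genes. All 33 were among the 17891 genes of the deposited count table. The samples were 2 libraries of single cells from mouse corneal epithelium, the layered surface tissue of the eye. The donors, C57BL/6J males 10 weeks of age, had both lacrimal glands of the right side removed, inside and outside the orbit, which dries the right eye. On day 9 the epithelium of 7 left eyes was pooled as control and that of 6 right eyes as dry eye, after 1 injured right eye had been left out. The control eyes thus came from the operated animals, and the side of the eye cannot be told apart from the treatment. With 1 library per group there was no replicate check and no test between the groups. Intervals given with ratios and shares are exact 95% Clopper-Pearson intervals of counting error only.

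Before a cell can copy its DNA, the origin recognition complex, Cdc6 and Cdt1 load the ring of Mcm proteins onto chromosomes. In S phase Cdc45 and the GINS complex turn that ring into the active helicase, primase starts each strand, and polymerases tied to the Pcna clamp extend it. Most of these genes are transcribed late in G1 and in S phase, when E2F factors are released from retinoblastoma family proteins by cyclin and kinase activity. In the cornea, dividing cells lie in the limbus and the basal layer, and their daughters stop cycling as they move up through the wing layers to the squamous surface.

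Promoters are shown because E2F factors bind sites of known letters near the starts of such genes. RefSeq promoters of build GRCm38.p6, from 250 bases before to 50 after each start, were at hand for 27 of the 33 genes. They were searched on both strands for TTTCCCGC, TTTCGCGC, TTTGCCGC and TTTGGCGC. At least 1 match lay in the promoters of 10 of the 27 genes (37.0%), namely Mcm3, Mcm5, Mcm6, Mcm7, Cdc6, Cdt1, Pola1, Dtl, Uhrf1 and Hells. The share was 2.61% of all 27025 genes with a promoter in the table, 29.2% of 89 other replication and G1 genes from the lists used further on, and 3.57% of 28 genes of G2 and M phase. The motif CCAAT, searched the same way, was present in 51.9% of the 27 genes, in 41.1% of all genes and in 75% of the G2 and M genes. A match describes letters and does not show binding. The stretches printed here, 5′ to 3′ on the gene's strand with matches to either strand in capitals, come from 3 helicase genes or loaders (Mcm6, Mcm5, Cdc6), a ubiquitin ligase gene (Dtl), a chromatin remodeller (Hells) and a polymerase subunit (Pola1).
Mcm6, chr1:128359736-128359825, minus strand: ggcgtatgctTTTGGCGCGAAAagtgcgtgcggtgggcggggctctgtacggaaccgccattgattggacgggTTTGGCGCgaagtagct
Mcm5, chr8:75109344-75109403, plus strand: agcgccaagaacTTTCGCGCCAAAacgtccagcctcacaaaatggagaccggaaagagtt
Cdc6, chr11:98907986-98908045, plus strand: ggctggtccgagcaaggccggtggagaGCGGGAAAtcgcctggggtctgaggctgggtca
Dtl, chr1:191575545-191575604, minus strand: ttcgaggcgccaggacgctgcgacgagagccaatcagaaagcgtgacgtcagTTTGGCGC
Hells, chr19:38930913-38930942, plus strand: gcgagaccaccgggtTTTCCCGCgaaagag
Pola1, chrX:93632261-93632320, minus strand: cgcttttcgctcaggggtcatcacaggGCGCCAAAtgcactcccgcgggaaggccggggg
Where capitals run past 8 bases, in Mcm6 and Mcm5, matches on opposite strands overlap. The Dtl match ended at the last base before the start of the gene.

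The control library held 17465 cells and 191493194 UMIs (unique molecular identifiers, each standing for 1 captured RNA), and the median cell had 8248 UMIs. In dry eye there were 16420 cells, 207030777 UMIs and a median of 9086.5 per cell. The deposited cell table named 13 classes, 5 of them with an asterisk, whose names are used as given and not spelled out. The libraries shared 74 cell barcodes. Markers of other cell types were low in both libraries: T cell genes summed to 0.204 and 0.565 CPM (UMIs scaled to the same library total), macrophage genes to 0.825 and 0.633, melanocyte genes to 2.28 and 2.10 and the 1 stromal gene measured to 0.104 and 0.299. Cells labelled Immune held 15 and 37 UMIs of the 33 genes.

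The replication genes were higher in dry eye as a group, over all cells. Their summed UMIs made up 0.0376% of the control library (0.0373 to 0.0379; 71953 UMIs) and 0.0536% of the dry eye library (0.0533 to 0.0539; 110981 UMIs), a ratio of 1.43 (1.41 to 1.44). Of the 33 genes, 24 were at least 1.5-fold higher, against a background of 7.94% of 13997 genes with at least 50 UMIs, and 0 were lower by as much, against 5.87%. All 33 ratios lay above 1, from 1.0 to 2.35, and the median log2 ratio was 0.69, against -0.07 over all genes compared, of which 39.0% lay above 1. Just inside the 1.5-fold line stood Gins2, at 1.52, and just outside it Tyms, at 1.4. At a fold of 2, Hells and Uhrf1 remained, against a background of 3.76%. The summed genes of G2 and M phase had the same ratio, 1.43 (1.42 to 1.44).

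**Figure D1:**
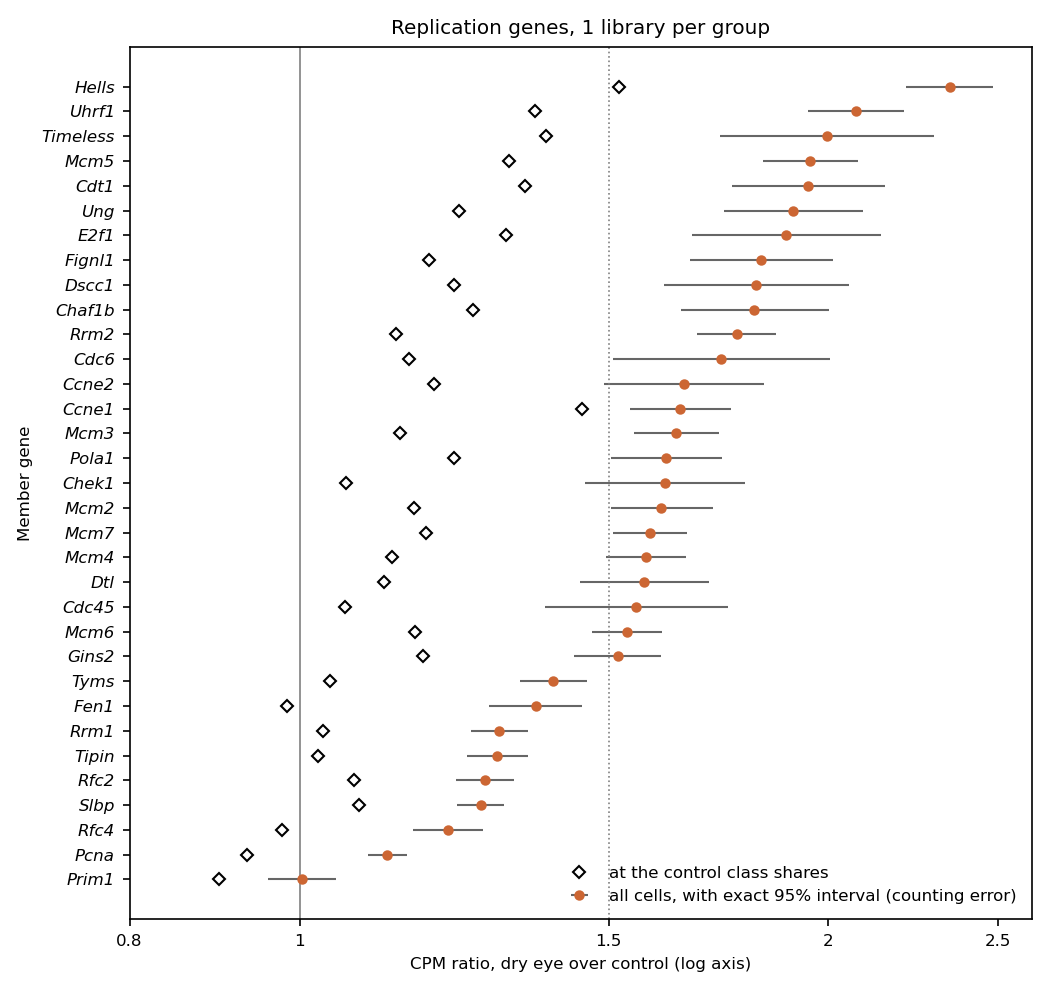
Ratio of dry eye over control CPM for each of the 33 genes over all cells, on a log axis and in order of size, with exact 95% counting intervals, and, as open diamonds, the ratio at the control library's class shares. Hells stood highest at 2.35 and Prim1 lowest at 1.0, and at the control class shares Hells alone stayed above 1.5.

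All 10 genes of the helicase and its loading were at least 1.5-fold higher, with a median log2 ratio of 0.67. Mcm5, a subunit of the ring, went from 7.73 CPM in control to 15.1 in dry eye, giving a ratio of 1.95 (1.84 to 2.08). Mcm6, another subunit, went from 15.5 to 23.8 CPM, that is a ratio of 1.54 (1.47 to 1.61). The ring's other subunits stood close together, with Mcm4 and Mcm7 at 1.58, Mcm2 at 1.61 and Mcm3 at 1.64. The loaders were less abundant: Cdt1 went from 3.02 to 5.89 CPM, that is a ratio of 1.95 (1.76 to 2.16), and Cdc6, with 299 and 562 UMIs, had a ratio of 1.74 (1.51 to 2.01). For the activating factors the ratio was 1.55 (1.38 to 1.75) for Cdc45 and 1.52 (1.43 to 1.61) for Gins2, a GINS subunit. The intervals of Mcm5 and of the 5 other ring subunits did not overlap, although the subunits work as 1 complex.

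The genes of DNA synthesis stood lower as a group, with 2 of 7 past 1.5-fold and a median log2 ratio of 0.35. Pcna, the sliding clamp, had the most UMIs of the 33 genes, 10566 and 12820, and went from 55.2 to 61.9 CPM, that is a ratio of 1.12 (1.09 to 1.15). Prim1, the catalytic primase subunit, stood at 19.4 CPM in control and 19.5 in dry eye, giving a ratio of 1.0 (0.959 to 1.05), and was the 1 gene of the 33 whose interval held 1. The clamp loader subunits Rfc4 and Rfc2 had ratios of 1.21 (1.16 to 1.27) and 1.28 (1.23 to 1.33), and Fen1, the nuclease that trims Okazaki fragments, 1.36 (1.28 to 1.45). The pair past the line were Pola1, the catalytic subunit of the polymerase that extends primers, from 5.99 to 9.69 CPM or 1.62 (1.5 to 1.74), and Dscc1, part of an alternative clamp loader, from 2.11 to 3.84 CPM or 1.82 (1.61 to 2.06).

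The genes of nucleotide supply differed among themselves. Rrm2, the regulatory subunit of ribonucleotide reductase, went from 11.7 to 20.7 CPM, that is a ratio of 1.77 (1.69 to 1.87). Its partner Rrm1, the large subunit, went from 25.5 to 33.1 CPM, that is a ratio of 1.30 (1.253 to 1.35). Tyms, which makes thymidylate, went from 17.7 to 24.7 CPM, that is a ratio of 1.4 (1.34 to 1.46). The intervals of the 2 reductase subunits lay apart.

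Of the 6 genes of fork protection, checkpoint and repair, 5 were at least 1.5-fold higher, with a median log2 ratio of 0.78. Timeless and Tipin encode partners in the fork protection complex, yet Timeless had a ratio of 2.0 (1.74 to 2.30) on 295 and 637 UMIs and Tipin of 1.30 (1.245 to 1.35) on 4073 and 5709 UMIs. Ung, which removes uracil from DNA, went from 3.62 to 6.93 CPM, that is a ratio of 1.91 (1.74 to 2.10). Fignl1, a recombination factor, had a ratio of 1.83 (1.67 to 2.01). Chek1, the kinase that responds to stalled forks, stood at 1.61 (1.46 to 1.79), and Dtl, which directs the breakdown of Cdt1 in S phase, at 1.57 (1.44 to 1.71). Cdt1 and the gene that encodes its removal factor were thus both higher.

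The chromatin genes held the highest ratios of the 33. Hells, a remodeller of the SNF2 family needed for DNA methylation (chromosome 19, 38930915 to 38971051 in GENCODE vM21), had 8.72 CPM in control and 20.5 in dry eye, giving a ratio of 2.35 (2.22 to 2.49). Uhrf1, which brings the maintenance methyltransferase to newly copied DNA (chromosome 17, 56303321 to 56323486), had 7.41 and 15.4 CPM, which is a ratio of 2.08 (1.95 to 2.21). Both act in copying DNA methylation. Chaf1b, a subunit of the histone chaperone that follows the fork, had a ratio of 1.82 (1.65 to 2.0), and Slbp, which binds histone mRNA, 1.27 (1.23 to 1.31) on 6935 and 9508 UMIs. Of the genes of entry into S phase, E2f1 went from 2.01 to 3.81 CPM, that is a ratio of 1.89 (1.67 to 2.14). The cyclins Ccne1 and Ccne2, which switch on the S phase kinase, had ratios of 1.65 (1.54 to 1.76) and 1.66 (1.49 to 1.84).

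Ratios were lowest for the genes that had much of their RNA outside the 4 classes TAC1, TAC1*, TAC2 and TAC2*. These classes held 12.2% of the control library's UMIs and 20.5% of the dry eye library's. For 12 genes they held under 60% of the gene's own control UMIs, and 4 of those 12 were past 1.5-fold, with ratios from 1.0 to 1.65 and a median of 1.30. For the 21 others, 20 were past it, with ratios from 1.4 to 2.35 and a median of 1.77. Over the 33 genes, the share of control UMIs in the 4 classes and the log2 ratio had a Pearson correlation of 0.75 and a Spearman correlation of 0.75, as a description: all points come from the same pair of libraries, and the control counts enter both measures. Pcna had 37.7% of its control UMIs in these classes and 53.9% of its dry eye UMIs, and Ccne1, past the line, had 23.3% and 37.6%.

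With each class given the share of UMIs it had in control, the differences were much smaller. Squam*, which had no control cells, got no weight in this. TAC2*, Wing* and LSC* got the UMI shares of 21, 12 and 6 control cells, so most starred cells of dry eye counted little. The summed ratio was then 1.09, that of the G2 and M genes 1.04, and the median log2 ratio of the 33 genes 0.22, against -0.09 over all genes. Hells, at 1.52, was the 1 gene of the 33 still past 1.5-fold, against a background of 4.66%, and 0 were lower by as much, against 4.29%. Ratios remained above 1 for 29 of the 33 genes, with Ccne1 at 1.45, Timeless at 1.38, Uhrf1 at 1.36 and Cdt1 at 1.35 next to Hells. Prim1 at 0.899, Pcna at 0.933, Rfc4 at 0.977 and Fen1 at 0.983 were below 1. All 4 belong to the synthesis group.

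The classes are not independent of these genes. All 10 genes that led TAC1 over other cells by fold were among the 33 (Ung, Hells, Mcm3, E2f1, Mcm2, Dtl, Chek1, Mcm5, Mcm6 and Uhrf1), and TAC1* had 3 of the 33 among its 10. TAC2 was led by 9 genes of the G2 and M list and 0 of the 33. TAC2* had 0 genes of either kind among its 10. The 10 leading genes of Conj held Krt4, a gene of the squamous marker list, and none of the markers listed for Conj, so its values are given for cells with that deposited label. The 10 leading genes of Basal and of Squam also held none of the markers listed for those classes. Levels by class and class sizes are therefore descriptions.

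**Figure D2:**
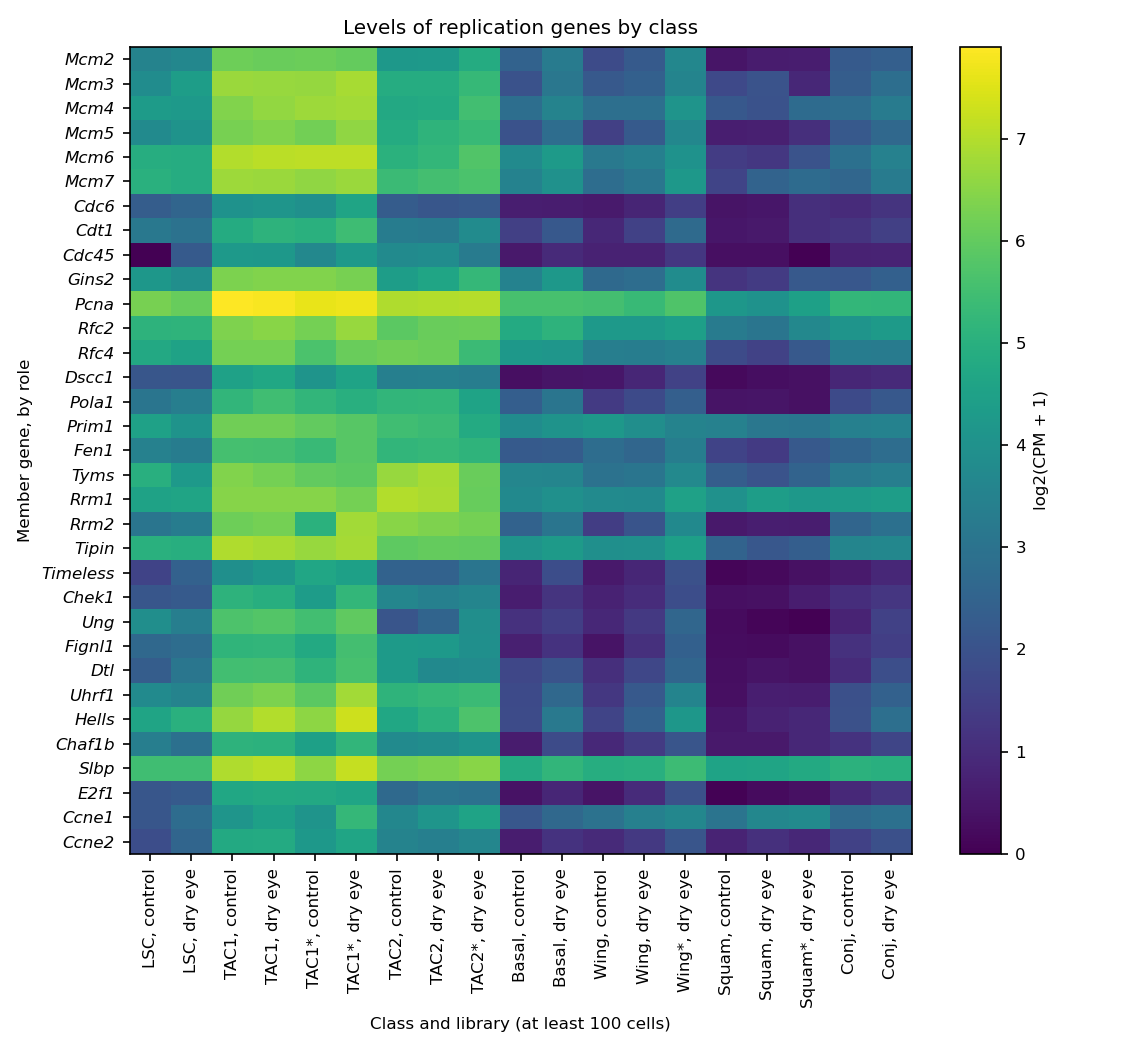
Level of each of the 33 genes, as log2(CPM + 1), in the sums of each class and library with at least 100 cells. Columns are classes with control and dry eye side by side, and the highest level of every gene lies in a TAC column.

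In control, 23 of the 33 genes had their highest level in TAC1, 7 in TAC1* and 3 (Tyms, Rrm1 and Rrm2) in TAC2. In dry eye, 11 were highest in TAC1, 20 in TAC1* and 2 (Tyms and Rrm1) in TAC2. The genes differed in how far they set TAC1 apart from TAC2. Ung, at the steep end, was 15.7-fold higher in TAC1 than in TAC2 in control and 11.2-fold higher in dry eye, E2f1 4.55-fold and 3.69-fold, and Hells 3.99-fold and 3.82-fold. At the flat end, Rfc4 had ratios of 1.02 and 1.10 and Pola1 of 1.02 and 1.19, while Tyms had 0.821 and 0.650 and Rrm1 0.686 and 0.729. Ccne1 had the smallest step from Squam to TAC1, being 2.26-fold higher in TAC1 than in Squam in control and 1.86-fold in dry eye. It was the 1 gene of the 33 whose class profile followed the summed set weakly, as described further on.

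**Figure D3:**
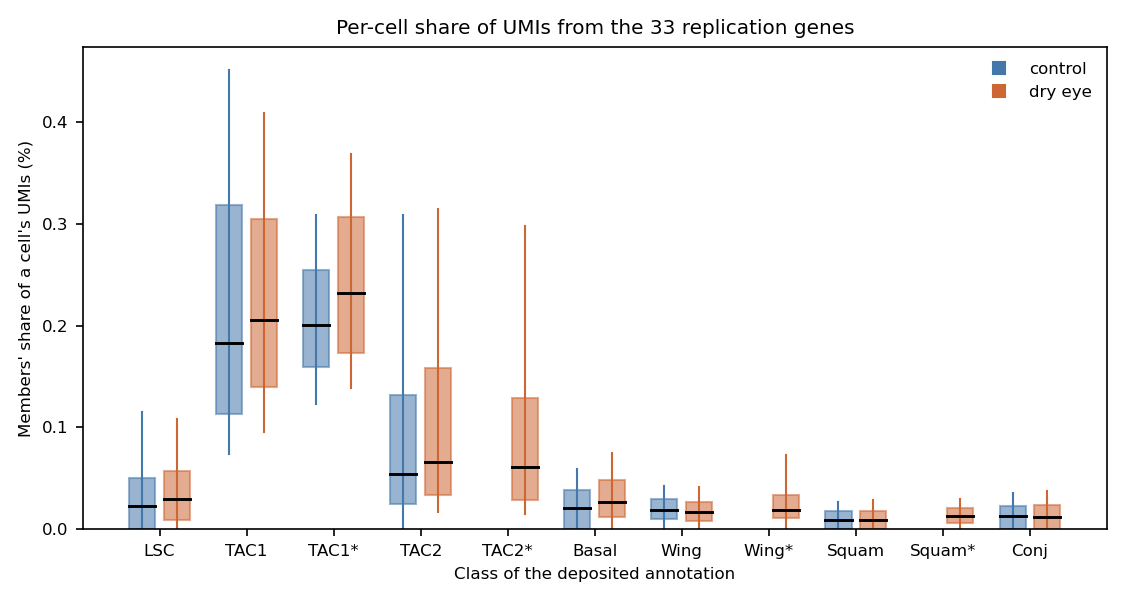
Share of each cell's UMIs that came from the 33 genes, in percent, by class and library of at least 100 cells: the black line is the median cell, the box spans the 25th to 75th and the line the 10th to 90th percentile. Medians are highest in TAC1 and TAC1*, and in TAC1 they are 0.183% in control and 0.205% in dry eye.

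The share of UMIs from the 33 genes was highest in TAC1 and TAC1* and low in the surface classes. In TAC1 it was 0.221% in control and 0.230% in dry eye, giving a ratio of 1.04 (1.02 to 1.06). In TAC2 it was 0.121% and 0.125%, also 1.04 (1.02 to 1.06). At the surface, in Squam, it was 0.0110% and 0.0116%, a ratio of 1.05 (1.01 to 1.10). Conj cells had 0.0210% and 0.0247%, a ratio of 1.18 (1.13 to 1.22), and LSC cells 0.0542% and 0.0529%, a ratio of 0.976 (0.900 to 1.06) whose interval held 1. The 2 classes with the highest ratios were Basal, at 0.0254% and 0.0335% or 1.32 (1.27 to 1.36), and TAC1*, at 0.195% and 0.243% or 1.24 (1.20 to 1.30) on 133 control and 473 dry eye cells. In Basal the shift was also present in the middle and upper cells: the median cell's share went from 0.0212% to 0.0265%, and the 90th percentile from 0.0587% to 0.0748%.

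In Wing cells the sum and the typical cell differed in direction. The share was 0.0216% in control and 0.0230% in dry eye, giving a ratio of 1.07 (1.05 to 1.09), but the median cell had 0.0186% and 0.0167%. The deepest 5% of cells in each library made up 11.1% of control and 13.7% of dry eye Wing cells and held 36.2% and 49.5% of the class's UMIs of the 33 genes. Without them the ratio was 0.972 (0.944 to 1.0). The median Conj cell also went against the sum of its class, with 0.0130% in control and 0.0123% in dry eye. There the deepest cells were 6.46% and 5.76% of cells and held 45.2% and 44.7% of the UMIs of the 33 genes, and without them the ratio was 1.18 (1.12 to 1.24). In Basal 1 and 0 cells were that deep, and the ratio was again 1.32. No doublet caller was run, and the part of doublets in the deepest cells was not tested.

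Taken over all 4 TAC classes, the share was 0.162% in control and 0.168% in dry eye, giving a ratio of 1.04, and these classes held 52.7% and 64.4% of all UMIs of the 33 genes. In all other cells it was 0.0202% and 0.0240%, a ratio of 1.18 (1.17 to 1.20). With the 4 classes left out, 19 of the 33 genes were at least 1.5-fold higher, against a background of 7.26%.

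Within single classes, genes with at least 50 UMIs over both libraries were then compared one at a time, all 33 in TAC1, TAC1*, TAC2 and Wing, 30 in Conj, 26 in Basal, 20 in LSC and 16 in Squam. In TAC1, 0 of 33 were at least 1.5-fold higher, against a background of 2.39%, and 0 were lower by as much, against 2.25%. The ratios ran from Chek1 at 0.896 (0.762 to 1.06) and Tyms at 0.902 (0.815 to 0.998) to Hells at 1.26 (1.15 to 1.37) and Ccne1 at 1.31 (1.06 to 1.63). Hells went from 99.0 to 125 CPM there. In TAC2, 1 of 33 was past the line, against 3.14%: Ung at 1.5 (1.04 to 2.21), followed by Ccne1 at 1.4 (1.15 to 1.71). The lowest, none past the line against 4.32%, were Dtl at 0.669 (0.557 to 0.803) and Cdc6 at 0.841. The TAC1 and TAC2 shares thus lay at or near their backgrounds.

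TAC1* had 10 of 33 genes past 1.5-fold and a median log2 ratio of 0.44, but its background was also the highest, 15.6% for higher and 14.6% for lower genes, of which the 33 held 0. Rrm2 was highest, with 46 UMIs in control and 673 in dry eye, 31.9 and 110 CPM, that is a ratio of 3.45 (2.56 to 4.76), ahead of Ccne1 at 2.32 (1.51 to 3.73). Pola1 at 0.853 (0.624 to 1.18) and Rrm1 at 0.864 (0.708 to 1.06) were lowest, and both intervals held 1. The G2 and M genes had a summed ratio of 2.06 in the same cells.

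**Figure D4:**
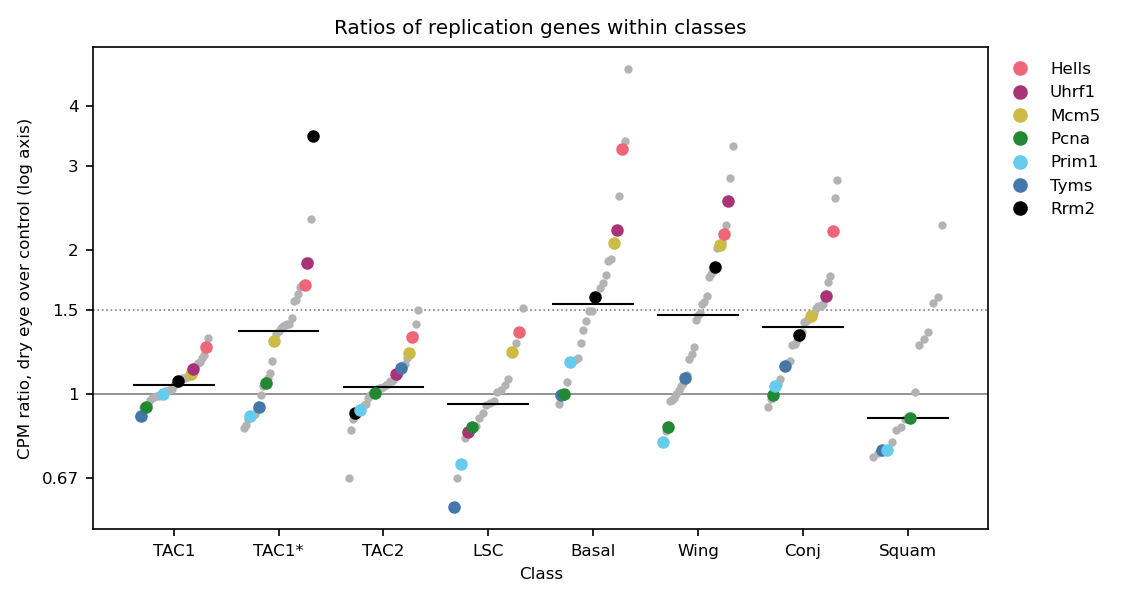
Ratio of dry eye over control for the 33 genes within the 8 classes with 100 cells or more per library, on a log axis, with 1 point per gene of at least 50 UMIs, 7 genes in colour and a bar at the median. Points of TAC1 and TAC2 crowd around 1, while those of Basal, Wing, Conj and TAC1* reach above 2.

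In Basal cells 13 of 26 genes were at least 1.5-fold higher, against a background of 2.24%, and 0 were lower by as much, against 2.62%. The median log2 ratio was 0.62. Chaf1b had the highest ratio, 4.77 (2.59 to 9.36), on 14 and 49 UMIs, ahead of Timeless at 3.38 (2.0 to 5.90). Hells went from 2.52 to 8.20 CPM, that is a ratio of 3.25 (2.43 to 4.38). Rfc4 at 0.955 (0.826 to 1.10) and Tyms at 0.998 were lowest. The synthesis genes were spread, from Rfc4 and Pcna at 1.0 (0.921 to 1.09) to Rfc2 at 1.19 (1.07 to 1.33) and Pola1 at 1.78 (1.38 to 2.29). In Wing cells 15 of 33 were past the line, against 5%, and 0 were lower by as much, against 6.43%. They were led by Fignl1 at 3.29 (2.11 to 5.26) and E2f1 at 2.83 (1.79 to 4.56). Prim1 at 0.795 (0.731 to 0.865) and Fen1 at 0.838 (0.727 to 0.965) were lowest there, and Pcna had a ratio of 0.855. Without the deepest cells, 5 of 28 genes remained past the line in Wing, against 4.04%, and 13 of 26 in Basal.

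In Conj 10 of 30 genes were past it, against 2.92%, and 0 lower, against 1.63%, with Dtl at 2.80 (1.68 to 4.85) and Ung at 2.57 highest and with Slbp at 0.943 and Rfc4 at 0.979 lowest. Without the deepest cells 6 of 20 remained, against 2.49%. In Squam 3 of 16 were past it, against 3.94%, and 0 lower, against 14.5%. The median log2 ratio there was -0.17, near the -0.20 over all genes compared in Squam. Mcm7 at 2.25 (1.70 to 3.02) and Ccne1 at 1.59 (1.36 to 1.87) were highest there, and Tipin at 0.742 (0.581 to 0.946) and Fen1 at 0.754 lowest. In LSC 1 of 20 was higher, against 4.35%: Mcm3 at 1.51 (0.923 to 2.60), whose interval held 1, followed by Hells at 1.35. Tyms at 0.582 (0.398 to 0.858) was the 1 gene lower by the same fold, against 7.87%, followed by Ung at 0.671.

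Free RNA from broken cells adds UMIs to every droplet. The most that it could add per cell was bounded for each gene from the Squam and Squam* cells of dry eye. Genes were listed where the uncorrected ratio was at least 1.5 and a further condition held. For it, the lower dry eye limit, less the bound, had to exceed the upper control limit. The fold was not recomputed after that subtraction. Listed were 5 genes in Basal (Mcm2, Gins2, Pola1, Timeless and Hells), 8 in Wing (Mcm5, Rrm2, Ung, Fignl1, Dtl, Uhrf1, Hells and E2f1), 2 in Conj (Dtl and Hells) and 7 in TAC1* (Rrm2, Chek1, Fignl1, Uhrf1, Hells, Chaf1b and Slbp). None was listed in TAC1, TAC2 or LSC. Hells was the 1 gene on all 4 of these lists.

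To compare cells of unlike depth, UMIs were drawn at random until each cell had 3000, and 1094 control and 784 dry eye cells below that depth were left out. A cell with at least 5 thinned UMIs of the 33 genes was counted as rich in them. Such cells made up 6.13% of control (1004 of 16371; 5.77 to 6.51) and 11.4% of dry eye (1783 of 15636; 10.9 to 11.9). Unthinned, the shares with at least 5 UMIs were 19.8% and 29.9%. In the surface classes Squam and Squam*, where cells no longer divide, 1 of 2987 control cells reached 5 (0.0335%) and 0 of 3066 dry eye cells did, for which 3 cells would be 0.0978% and the exact interval reaches 0.12%. Unthinned, 3.11% and 5.42% of those cells did, at median depths of 9342.5 and 9639 UMIs. Cells with 4 or 5 thinned UMIs, next to the limit, made up 2.77% and 4.77% of the libraries.

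By class, 58.0% of control TAC1 cells were rich (54.8 to 61.2), against 67.7% of dry eye TAC1 cells (64.8 to 70.4), intervals that lay apart. At 8 UMIs the TAC1 shares were 34.5% (31.5 to 37.6) and 37.0% (34.1 to 39.9), intervals that overlapped. The unthinned share of UMIs in TAC1 was higher in dry eye for the median cell but lower at the 90th percentile, 0.409% against 0.451%. For rich cells the intervals overlapped in TAC1*, at 66.9% (58.2 to 74.8) and 75.2% (71.0 to 79.1), in TAC2, at 23.0% (20.7 to 25.3) and 25.5% (23.5 to 27.7), and in LSC, at 7.57% and 7.38%. Over all 4 TAC classes it was 38.8% and 43.3%. Basal cells had 0.402% (0.225 to 0.663) and 1.21% (0.832 to 1.71), intervals that lay apart. More of the Basal difference lay in cells with a few UMIs: 4.77% and 10.1% had at least 3, and 52.2% and 58.2% had at least 1. In Wing 0.256% and 0.760% were rich, and 3.47% and 4.31% had at least 3, while the share with at least 1 was lower in dry eye, 45.7% and 42.9%. The Wing intervals lay apart for the rich cells, 14 and 25 in number, and overlapped for at least 3 and at least 1. At least 2 UMIs were found in 14.1% and 14.0% of Wing cells.

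**Figure D5:**
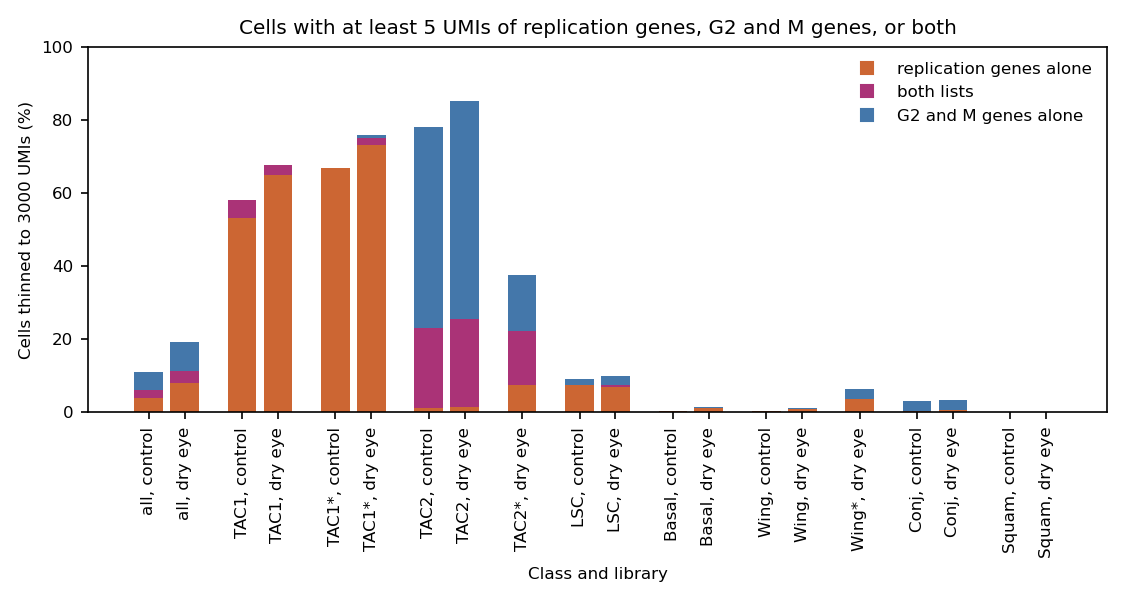
Cells sorted by thinned counts into those with at least 5 UMIs of the 33 genes alone, of the G2 and M list alone, or of both, in percent of cells, for control and dry eye and by class. In TAC1 the replication genes alone make up 53.3% and 65.0% of cells, and in TAC2 the G2 and M genes alone make up 55.1% and 59.6%.

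Each thinned cell was also scored for 31 genes of G2 and M phase with the same limit. Cells with the replication genes alone were 4.03% of control and 7.99% of dry eye, cells with G2 and M genes alone 4.87% and 7.82%, and cells with both 2.10% and 3.42%. In TAC1 53.3% and 65.0% of cells had the replication genes alone. In TAC2 21.9% and 24.0% had both and 55.1% and 59.6% the G2 and M genes alone. Over all cells the 3 groups defined by these counts were thus larger in dry eye, and the share with neither went from 89.0% to 80.8%. In TAC1 the share with both was smaller in dry eye, 4.74% (3.48 to 6.29) against 2.69% (1.82 to 3.82), intervals that overlapped.

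Ratios of genes of successive steps gave values on the order of the cycle. Cdt1 licenses origins in G1 and Gmnn blocks it from S phase on. Over all cells their UMI ratio in control was 0.124 (0.114 to 0.136), and in dry eye it was 0.162 (0.152 to 0.172). By class it was 0.210 and 0.260 in TAC1, 0.142 and 0.238 in Basal, and 0.103 and 0.0899 in TAC2, and within each of these classes the intervals overlapped. The E cyclins, of entry, over Ccna2, of S and G2, stood at 0.905 (0.850 to 0.963) and 0.922 (0.880 to 0.966) over all cells, intervals that overlapped, at 4.43 and 4.82 in TAC1 and at 0.162 and 0.184 in TAC2. The intervals in TAC1 and in TAC2 overlapped as well. In Basal the cyclin ratio was lower in dry eye, 3.74 (2.56 to 5.60) against 7.57 (4.32 to 14.3), intervals that overlapped. The 6 Mcm ring genes over Mki67 and Top2a, which peak in G2 and M, stood at 1.07 and 1.24 over all cells, 9.93 and 9.19 in TAC1, where the intervals overlapped, 0.234 and 0.281 in TAC2 and 5.07 and 7.70 in Basal. In Wing both of the latter ratios were lower in dry eye, 4.91 against 13 for the cyclins and 3.13 against 6.40 for the Mcm genes. The ratio of Cdt1 to Gmnn went the other way in Wing. It was 0.0943 (0.0775 to 0.114) in dry eye against 0.0560 (0.0435 to 0.0711) in control. The Mcm ratio was also lower in dry eye in TAC1*, 10.1 against 22.5, and in Squam, 3.51 against 6.22. It was higher in dry eye in LSC, 6.23 against 3.89, intervals that overlapped, and in Conj, 1.09 against 0.752, intervals that lay apart.

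The starred classes came mostly from dry eye, so they were set against their unstarred namesakes within that library. TAC1* had a summed share 1.06 times that of TAC1 (1.04 to 1.08), with Ccne1 1.72-fold (1.43 to 2.08) and Rrm2 1.45-fold higher, and with Pola1 at 0.708 and Tyms at 0.778. TAC2* had nearly the summed share of TAC2, 0.968 (0.943 to 0.992), but the G2 and M genes were far lower, at 0.244 (0.239 to 0.249). Ung was 2.87-fold, Mcm4 1.59-fold and Gins2 1.58-fold higher in TAC2* than in TAC2, and Rrm1 at 0.549 and Tyms at 0.575 were lower. Of the thinned TAC2* cells in dry eye, 62.4% were rich in neither gene set, 7.51% in the replication genes alone, 14.7% in both and 15.4% in the G2 and M genes alone. The E cyclins over Ccna2 stood at 0.717 in TAC2*, against 0.184 in TAC2, and the Mcm genes over Mki67 and Top2a at 1.38, against 0.281.

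Starred cells held much of the difference between the libraries: TAC1* held 3.92% of control and 13.4% of dry eye UMIs of the 33 genes, and TAC2* 0.181% and 7.17%. TAC1 held 26.4% and 22.3%, and TAC2 22.2% and 21.5%. Without the 5 starred classes, the summed ratio over all cells was 1.28, and 11 of the 33 genes were at least 1.5-fold higher, against a background of 5.84%.

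Other genes of replication and of cell cycle control, 113 in 9 lists that share no gene with the 33, were higher less widely: 23 were at least 1.5-fold higher and 0 lower, against the same background of 7.94% and 5.87%, 87 had a ratio above 1, and the median log2 ratio was 0.30. The 113 include 22 genes of the E2F, pocket protein and G1 cyclin list, with a median of 0.18. They also include 7 inhibitors of cyclin-dependent kinases, with a median of -0.16. At the control class shares, 1 of the 113 stayed past the line, Orc1 at 1.62, and the median was 0.00. Whether these lists differ from the 33 was not tested. Among 22 genes of origin recognition and firing, 4 were higher, with Orc1, a subunit of the origin recognition complex, at 2.65 (2.12 to 3.34) on 106 and 304 UMIs and the replication factor Mcm10 at 1.77, and with Orc5 at 0.681 and the helicase Recql4 at 0.673 lowest. Subunits of 1 complex thus stood at both ends of the list. Of 10 polymerase genes 2 were higher, the polymerase epsilon subunits Pole2 at 1.94 and Pole at 1.51, and the small subunits Pold4 at 1.04 and Pole4 at 0.985 were lowest.

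Of 11 genes of the clamp and Okazaki fragments 2 were higher, the clamp-binding factor Pclaf at 1.97 (1.92 to 2.03), from 34.2 to 67.5 CPM, and DNA ligase Lig1 at 1.63, with Rnaseh2b at 1.03 and the loader Rfc1 at 1.01 lowest. Pclaf thus stood well above its partner Pcna, at 1.12. None of the 3 single-strand binding genes was past the line, from Rpa2 at 1.35 to Rpa3 at 0.916. Of 12 other genes of nucleotide supply 4 were higher, with the CTP synthase Ctps at 1.96 and the dUTPase Dut at 1.62 highest and with the salvage kinase Dck at 0.888 and the reductase subunit Rrm2b at 0.688 lowest.

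Of 17 other fork and repair genes 4 were higher, led by the nuclease Exo1 at 1.77 and Rad51ap1 at 1.67, with Atrip among the lowest at 0.901. Of 9 other chromatin genes 1 was higher, the histone chaperone Asf1b at 1.62, ahead of Tonsl just under the line at 1.5, and Zranb3 at 0.929 and Rbbp4 at 0.921 were lowest. Of 22 genes of the E2F, pocket protein and G1 cyclin list 6 were higher. The repressor genes E2f8 at 1.79 and E2f7 at 1.72 led them, and the pocket protein genes Rb1 at 0.846 and Rbl2 at 0.793 were lowest. None of the 7 inhibitors of cyclin-dependent kinases was past the line in either direction, with Cdkn2d at 1.07, Cdkn1a at 1.03, Cdkn2a at 0.843 and Cdkn1b at 0.835. Of 31 genes of G2 and M phase 12 were higher, from Tacc3 at 1.64 and Ccna2 at 1.62 down to Cenpf at 1.14 and Kif23 at 1.12, and all 31 ratios lay above 1.

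The genes outside the 33 whose levels ran most like their sum were found by Pearson correlation of log2(CPM + 1) over 19 sums of a class in a library, among genes with at least 200 UMIs. They included Psmc3ip (0.993), the helicase and nuclease Dna2 (0.989), Mms22l (0.986), Rmi2 (0.986), Chaf1a (0.986), the primase partner Pola2 (0.984), Wdhd1 (0.984), Topbp1 (0.983) and Lig1 (0.983). Within the 33, the value ran from 0.991 for Uhrf1 to 0.893 for Rrm1, with Ccne1 apart at 0.641, which ranked 4309 among all genes. These points share libraries and depth, and the correlations are descriptions. Each of the 33 genes is also part of the sum it was compared with, which raises its value.

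In GENCODE vM21, 6 of the 33 genes have a gene of the other strand over their last 1000 bases, where these libraries are read, namely Mcm7, Rfc2, Rfc4, Gins2, Fen1 and Ccne2, and 2 have one on the same strand (Mcm7 with 2 miRNA genes and Cdt1 with Gm20388). How reads over such genes were assigned is not stated in the labels.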

How the data were processed

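Single-cell RNA was measured in 2 pooled libraries made with 10x Genomics Chromium 3' chemistry v3.1, per the labels. The submitters' processing notes name the build mm10 and the tools Seurat 4 and Cell Ranger 6.0.1. As deposited, the UMI counts were raw whole numbers up to 7968 for 33885 cells, and the authors' deposited cell table gave each cell's library and class. They also deposited 2 embedding scores per cell, not used here. Cell filters and the classing method: not given in the sources used. Counts were summed per library or per class and divided by the total UMIs to give CPM. Genes with at least 50 UMIs over both libraries were compared, and a ratio of at least 1.5 or at most its inverse was called. Intervals cover counting error only, since cells of a pool are not replicates, and no p-value was computed. 1 control UMI equalled 0.00522 CPM and 1 dry eye UMI 0.00483 CPM. Classes with at least 100 cells in each library were compared within. Free RNA was not removed, and its bound and the values without the TAC classes were chosen after seeing the data. The named genes were all 33, the 2 highest and 2 lowest of each list (1 of each for the shortest), the 2 highest and 2 lowest per class, and the 10 genes of most similar profile; others named beside them were chosen after their values were seen. Some genes that this rule names are not reported here. The genes and lists were chosen with earlier results of these data known. On simulated counts, the interval held the true ratio for 95.6% of 13718 unchanged genes and, by set ratio, for 91.8% to 98% of changed genes. These counts were drawn with counting error alone, as the interval assumes. The check thus says nothing about spread between cells, eyes or libraries. Python 3.11.15, numpy 2.4.6, scipy 1.17.1 and pandas 2.3.3 were used. Alternatives covered scaling, the fold, the UMI minimum, starred and deep cells, thinning and class shares.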

Additional observations from a re-analysis of the deposited data

Results flagged for a closer look

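For 6 genes the counting interval lay above 1 in 1 class and below 1 in another, and the difference between the classes was not tested. Rrm2 had a ratio of 3.45 (2.56 to 4.76) in TAC1* and 0.913 (0.846 to 0.986) in TAC2. Dtl had 2.8 (1.68 to 4.85) in Conj and 0.669 (0.557 to 0.803) in TAC2. Tyms had 1.14 (1.06 to 1.22) in TAC2 and 0.582 (0.398 to 0.858) in LSC. Fen1 had 1.4 (1.06 to 1.88) in TAC1* and 0.838 (0.727 to 0.965) in Wing. Tipin had 1.18 (1.02 to 1.36) in Basal and 0.742 (0.581 to 0.946) in Squam. Rfc2 had 1.33 (1.09 to 1.65) in TAC1* and 0.843 (0.71 to 1) in Squam.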

How the results depend on the processing

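No paired analysis was possible because each group had 1 library, and no library could be left out. The 24 of 33 genes past 1.5-fold over all cells became 2 at a fold of 2 (background 3.76%), 11 without starred classes (5.84%) and 17 with a mean over cells in place of the sum. No background was computed for the mean over cells. The summed ratio of 1.43 became 1.37 as a mean over cells, 1.28 without starred classes, 1.45 without the deepest 5% of cells and 1.48 without Pcna. At control class shares the summed ratio was 1.09, at dry eye class shares it was 1.15 and 2 genes were past the line, and with starred and unstarred classes joined 1.12 and 3. No background was computed for the dry eye shares or the joined classes. At dry eye class shares Dtl had a ratio of 0.960, below 1. Its control level there rests in part on 3, 3 and 2 Dtl UMIs in TAC2*, Wing* and LSC*. These classes had 21, 12 and 6 control cells, under the minimum for comparison, so this value is not read further. Within classes, 53 of 224 comparisons were past the line, with the background of each class as given above. The 3 of these in Squam were not put to the free RNA bound, which was taken from surface cells. Of the others, 22 were also beyond the bound, with no fold recomputed. By class they were 5 of 13 in Basal, 8 of 15 in Wing, 7 of 10 in TAC1*, 2 of 10 in Conj and 0 of 1 in LSC and in TAC2. Without the deepest cells the counts past the line were 5 in Wing, against a background of 4.04%, 6 in Conj, against 2.49%, and 0 in LSC and TAC2. With joined classes they were 1 in TAC1 and 3 in TAC2, and with a minimum of 20 UMIs 5 in LSC and 5 in Squam. No background was computed for the counts of 0, the joined classes or the minimum of 20 UMIs, so these counts are not read further. The share of rich cells in control and dry eye was 11.3% and 19.2% at 3 UMIs, 3.47% and 6.17% at 8, 4.15% and 7.17% thinned to 2000 UMIs, 9.87% and 18.1% thinned to 5000, 5.63% and 9.32% without starred classes, and 5.60% and 10.6% without Pcna. Cells with the replication genes alone were 7.44% and 12.1% at 3 UMIs and 2.37% and 4.70% at 8, and cells with both sets 3.83% and 7.05%, and 1.10% and 1.47%. Each of these shares was higher in dry eye. Genes with under about 50 UMIs in a class were limited by depth.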

Other observations

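The smaller starred classes of dry eye combined the replication genes and the genes of G2 and M phase in other ways than the TAC classes. Among the LSC* cells deep enough for thinning, 0 of 80 were rich in the replication genes, which allows up to 4.51% by the exact limit, while 27.5% were rich in G2 and M genes alone. Against LSC in the same library, the LSC* class had 0.632 times the share of the 33 genes and 5.42 times that of the G2 and M genes. Wing* cells had 1.70 times the share of the 33 genes in Wing and 2.5 times that of the G2 and M genes, and 3.61% of them were rich in the replication genes alone. Squam* cells had 1.23 and 3.12 times the shares of Squam. These classes had too few control cells to be compared between the libraries.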
